A study of Homo sapiens with 24 samples.

Results

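The cytosolic ribosomal protein genes were followed in Hodgkin lymphoma cell lines exposed for 2 h to AEZS-136, a dual inhibitor of PI3K and ERK signalling. Members were all array probes whose symbol is RPL or RPS with a number (an added letter or L included) or RPLP1 or RPLP2, leaving out the S6 kinases, the Y-linked copies and the pseudogenes. This gave 121 probes for 73 genes, 47 of the large and 26 of the small subunit, among 44053 usable probes. After a detection filter 118 of these probes, for 72 genes, remained among 24578. RPLP0, RPSA, RPS27A and other members without a symbol in the probe annotation were not analysed here. There were 8 groups of 3 arrays, each line as vehicle control and with 10 µM AEZS-136. All 4 are established lines grown in culture. Of these, KM-H2 and L-428 are called cell death-resistant in the study, and the others, L-540 and SUP-HD1, cell death-sensitive. The comparison addressed the early effect of the compound on gene expression. Whether replicate arrays stand for separate cultures is not said in the labels. The p-values therefore reflect array-to-array spread, part or all of which could be technical.

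Each cytosolic ribosome is built from a small subunit, which reads the mRNA, and a large subunit, which joins the amino acids. Most ribosomal proteins are present in them in about equal numbers. Most mRNAs of these proteins start with a run of pyrimidines, the terminal oligopyrimidine or TOP motif, through which mTOR, a kinase downstream of PI3K, controls how strongly they are translated. RPS6, a protein of the small subunit, is the classic substrate of the S6 kinases of this pathway. The arrays measured the amount of mRNA and not its translation.

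The promoters of the members called with AEZS-136, and of RPS6 and RPL13A for comparison, are shown because a TOP motif, where a gene has one, lies at the start. RPL37 is named only, without a window. Windows came from RefSeq (GRCh38.p14), which matched 61 of the 73 genes. Only the first listed window of each gene was used, and other starts were not searched. Each line below runs 5′ to 3′ on the strand of the gene, from 50 bases before the annotated start to 20 bases from it on, and capitals mark the longest pyrimidine run that touches the 10 bases on either side of the start.
RPS29, chr14:49598691-49598760, minus strand: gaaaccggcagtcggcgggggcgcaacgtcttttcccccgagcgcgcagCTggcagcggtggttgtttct
RPL28, chr19:55385882-55385951, plus strand: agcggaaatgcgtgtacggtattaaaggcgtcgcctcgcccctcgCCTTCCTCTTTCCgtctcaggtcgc
RPS26, chr12:56041868-56041937, plus strand: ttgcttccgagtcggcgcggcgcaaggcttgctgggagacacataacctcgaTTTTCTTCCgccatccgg
RPL29, chr3:51995876-51995945, minus strand: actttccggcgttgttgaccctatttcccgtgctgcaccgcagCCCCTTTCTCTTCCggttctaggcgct
RPL32, chr3:12841546-12841615, minus strand: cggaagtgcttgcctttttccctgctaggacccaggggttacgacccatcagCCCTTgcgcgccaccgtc
RPL13, chr16:89560607-89560676, plus strand: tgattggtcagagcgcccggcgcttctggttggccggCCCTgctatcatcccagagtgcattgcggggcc
RPL10L, chr14:46651762-46651831, minus strand: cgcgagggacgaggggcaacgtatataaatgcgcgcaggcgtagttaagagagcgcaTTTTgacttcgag
RPS6, chr9:19380217-19380286, minus strand: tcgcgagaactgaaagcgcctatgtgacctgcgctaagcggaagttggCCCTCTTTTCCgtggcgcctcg
RPL13A, chr19:49487558-49487627, plus strand: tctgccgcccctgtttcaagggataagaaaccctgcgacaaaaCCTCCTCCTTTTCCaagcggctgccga

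A run of 8 or more pyrimidines at the start was found in 48 of the 61 member windows (78.7%), against 15% of 27305 genes with a window. The median run was 11 bases in the members and 4 over all genes. RPL28 had a run of 13 bases, RPL29 and RPL13A of 14 and RPS6 of 11. The runs of RPL32 (5 bases), RPL13 (4) and RPL10L (4) were under 8. Of runs of equal length the first was marked, and RPL13 holds a further, unmarked run of 4 bases across its start. The run of RPS26 was 9 bases and began at position 3 of the annotated transcript, and that of RPS29 was 2 bases, the shortest among the members together with RPL27. The letters CCGGAAG, the core of an ETS family site, were present on either strand in 21 member windows of 300 bases (34.4%) and in 10.7% of all windows. The TATA box letters TATAAA were present in 5 (8.2%) against 12%. Of the 9 promoters shown, those of RPL29, RPL32, RPS6 and RPL13A held CCGGAAG within the whole window and that of RPL10L held TATAAA. These runs and matches are a description of the letters in the windows. A short run at the start used here does not show that the mRNA lacks a TOP motif.

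At 2 h few ribosomal protein probes had moved. Averaged over the lines, 4 of the 118 probes (3.39%) passed an adjusted p under 0.05 with a log2 change over 0.4, where 6.69% of all probes did, 4.22% higher and 2.47% lower. RPL37, RPS29 and RPL28 rose and RPS26 fell. In KM-H2, 4 members were called, 3 higher and 1 lower, against 11.2% of all probes (6.47% higher, 4.75% lower). In L-428, 4 were called, 2 each way, against 7.27% (4.05% higher, 3.22% lower). In L-540, 6 were called, 4 higher and 2 lower, against 9.06% (5.53% higher, 3.53% lower). In SUP-HD1, 3 were called, all higher, against 6.54% (2.94% higher, 3.60% lower). The same probes of RPL37 and RPS29 were called in all 4 lines, that of RPS26 in 3 and that of RPL28 in 2. A further 4 probes were called in 1 line each, and 110 of the 118 (93.2%) in none. Of all 24578 probes, 296 were called in 4 lines, 559 in 3, 1028 in 2, 3464 in 1 and 78.2% in none.

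**Figure D1:**
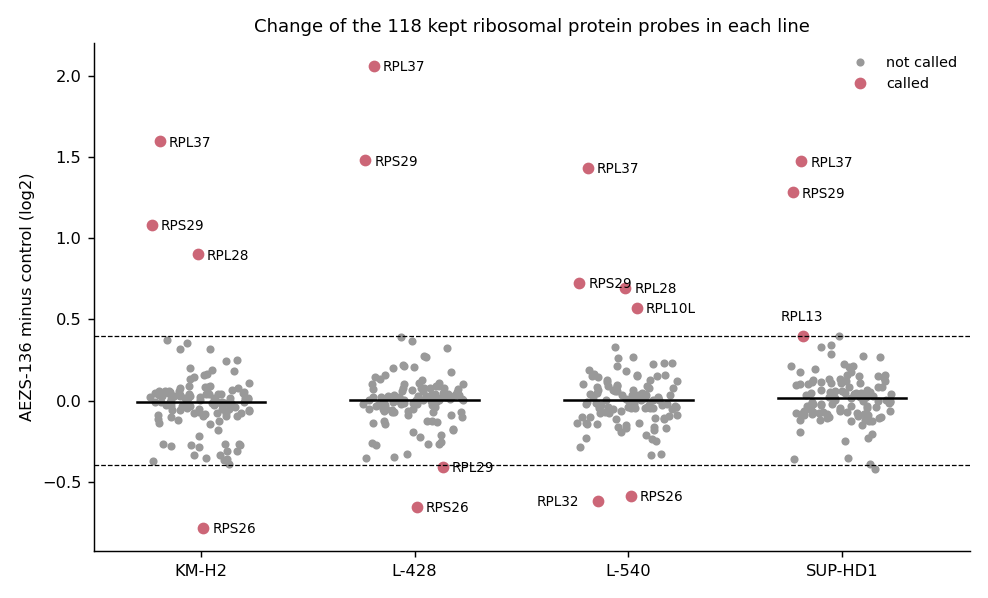
Log2 change (AEZS-136 minus control, from 3 arrays per group) of each of the 118 kept ribosomal protein probes in each line, with called probes in red and named, dashed lines at the limit of 0.4 and the median as a black bar. The medians lie at 0 within 0.02 in each line, and RPL37 is the highest point in all 4.

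The middle of the family lay close to no change. The median log2 change of the members was -0.00995 in KM-H2, 0.00463 in L-428, 0.00184 in L-540 and 0.0187 in SUP-HD1, where the medians of all probes were -0.0112, -0.00987, -0.0118 and 0.00884. In the mean of the lines 83 of the 118 probes (70.3%) lay within 0.1 of no change, against 48.3% of all probes. These shares were not matched for signal level, and changes were smaller in bright probes of any gene. Of the 73 members with a mean level of 13 or more 68 lay within 0.1, and of the 45 under 13 only 15 (33.3%). The large subunit had a median of -0.00631 over 74 probes and the small subunit one of 0.00464 over 44. These medians follow quantile normalisation, and scaling on the array medians alone moved that of the members in L-428 to -0.13 and in L-540 to 0.17, beside -0.08 and 0.04 for all probes.

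RPL37, a zinc-finger protein of the large subunit encoded on chromosome 5, showed the largest change. On probe ILMN_1800796 the normalised log2 intensity in KM-H2 was 8.60, 8.52 and 8.74 in the controls and 10.28, 10.18 and 10.19 with AEZS-136. In L-428 the controls read 6.51, 6.56 and 6.94 and the treated arrays 8.59, 8.84 and 8.77. In L-540 the values were 6.55, 6.56 and 6.24 against 7.88, 7.76 and 8.02, and in SUP-HD1 6.56, 6.10 and 6.71 against 7.77, 7.92 and 8.10. Every treated array lay above every control array of its line. The change was 1.60 in KM-H2, 2.06 in L-428, 1.43 in L-540 and 1.47 in SUP-HD1, each ± 0.15 (SE, n = 3 and 3), with adjusted p-values of 1.42e-07, 8.49e-09, 7.43e-07 and 1e-06 by limma. The mean of the lines, 1.64 ± 0.073 (SE), is a 3.12-fold higher signal (adjusted p = 6.68e-13). In the normalized table of the authors it was 1.11.

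The other probe of RPL37, ILMN_2191634, was detected on 9 of the 24 arrays and gave 0.19 ± 0.071 (SE, adjusted p = 0.0632) in the mean of the lines. All 6 KM-H2 arrays of it lay between 5.99 and 6.64, and all other arrays between 4.48 and 5.25. Its control arrays in L-428 and L-540 did not detect it. The increase of RPL37 therefore rests on 1 probe. Both probes are annotated to the same transcript record.

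RPS29, a small zinc-binding protein of the small subunit encoded on chromosome 14, rose on 1 of its 4 probes. On ILMN_2298818 the KM-H2 controls read 6.12, 6.68 and 6.42 and the treated arrays 7.40, 7.53 and 7.54. In L-428 the values were 7.56, 7.83 and 8.50 against 9.32, 9.47 and 9.55. In L-540 they were 8.13, 7.96 and 8.05 against 8.73, 8.92 and 8.66, and in SUP-HD1 7.96, 8.26 and 7.99 against 9.40, 9.14 and 9.53. Again no treated array overlapped the controls of its line, and L-428 control 3 stood above the other 2 controls. The change was 1.08 in KM-H2, 1.48 in L-428, 0.73 in L-540 and 1.28 in SUP-HD1, each ± 0.18 (SE), and 1.14 ± 0.089 in the mean of the lines (2.21-fold, adjusted p = 4.54e-09 by limma). In L-540 the adjusted p of 0.00952 became 0.0509 without AEZS-136 replicate 2.

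The other 3 probes of RPS29 gave 0.05 (ILMN_1694742), 0.06 (ILMN_1738243) and 0.03 (ILMN_2415722) in the mean of the lines, with adjusted p-values of 0.441, 0.528 and 0.67. Their array values lay between 13.70 and 14.55 in all groups. ILMN_2298818 and ILMN_2415722 are annotated to 1 RPS29 transcript record and the remaining pair to another, so the transcript record did not separate the probe that rose from the rest.

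RPL28, a large subunit protein encoded on chromosome 19, had 1 probe, ILMN_1673509. Its KM-H2 controls read 8.53, 8.59 and 8.53 and the treated arrays 9.45, 9.50 and 9.41. In L-540 the values were 6.09, 6.39 and 6.59 against 6.92, 7.04 and 7.20. In both lines it was called, with changes of 0.90 and 0.69 (± 0.12, SE, adjusted p = 2.19e-05 and 4.75e-04 by limma). L-428 gave 7.99, 7.96 and 7.92 against 8.59, 8.23 and 8.15, and SUP-HD1 7.95, 8.21 and 8.25 against 8.49, 8.53 and 8.56. There the changes were 0.37 (adjusted p = 0.0651) and 0.40 (adjusted p = 0.0467, just under the size limit). The treated arrays lay above the controls in all 4 lines, and the mean of the lines was 0.59 ± 0.060 (SE, 1.50-fold, adjusted p = 2.25e-07).

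RPS26, a small subunit protein at the mRNA exit channel encoded on chromosome 12, fell on probe ILMN_1755664. KM-H2 controls read 8.42, 8.44 and 8.55 and the treated arrays 7.64, 7.77 and 7.65. L-428 gave 8.54, 8.46 and 8.50 against 7.95, 7.82 and 7.78, and L-540 7.99, 7.87 and 7.57 against 7.15, 7.13 and 7.40. In these 3 lines the groups did not overlap. In SUP-HD1 they did, at 6.97, 7.32 and 7.54 against 7.15, 6.89 and 7.03. The changes were -0.78, -0.66, -0.59 and -0.25 (± 0.13, SE), and the first 3 were called (adjusted p = 1.77e-04, 0.00176 and 0.00368 by limma). The mean of the lines was -0.57 ± 0.064 (SE, a 1.48-fold lower signal, adjusted p = 7.25e-07), and -0.39 in the authors' table, where it misses the size limit.

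The other RPS26 probe, ILMN_2209027, also fell in the mean of the lines, by 0.24 on the log2 scale (adjusted p = 9.64e-05). By line it gave -0.35 in KM-H2 and -0.36 in SUP-HD1 (adjusted p = 0.0034 and 0.00579), -0.22 in L-428 (0.0858) and -0.02 in L-540 (0.934). The 2 probes thus passed the test together in KM-H2 but not in the same other lines, and the difference between the lines was not significant for either (adjusted p of the F test 0.215 and 0.139).

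**Figure D2:**
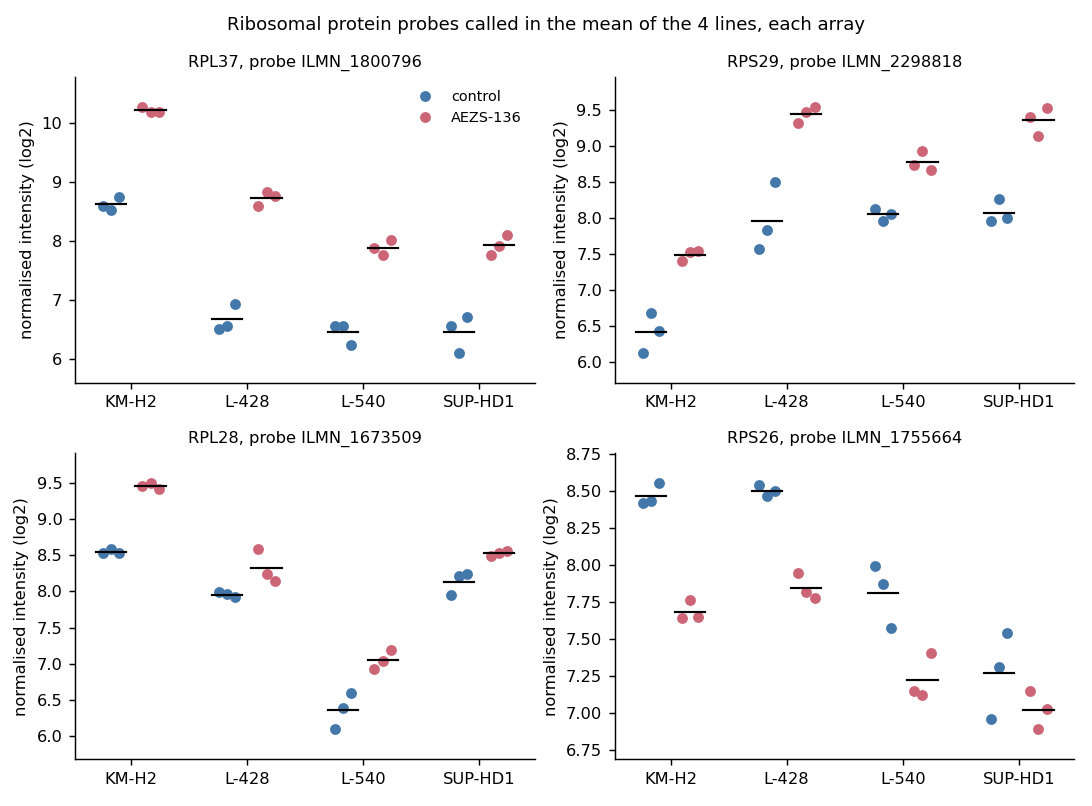
Normalised log2 intensity of the RPL37, RPS29, RPL28 and RPS26 probes called in the mean of the lines, with 1 point per array (3 per group), blue for control and red for AEZS-136, and the group mean as a black bar. The groups separate in every line except SUP-HD1 for RPS26.

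Another 4 members were called in a single line. RPL32, a large subunit protein, gave 11.99, 11.93 and 12.12 in L-540 controls and 11.46, 11.21 and 11.52 with AEZS-136 on probe ILMN_1782167, a change of -0.62 ± 0.11 (SE, adjusted p = 7.91e-04 by limma). Its other 3 probes gave 0.08, 0.05 and -0.04 in the same arrays. RPL29, a large subunit protein that also binds heparin, was called in L-428 on ILMN_1737517 (-0.41 ± 0.11, SE, adjusted p = 0.0177). RPL13, of the large subunit, was called in SUP-HD1 on ILMN_2413278 (0.40 ± 0.11, SE, adjusted p = 0.0215), where its other probe gave 0.02. RPL10L, a testis-enriched paralog of RPL10, was called in L-540 (adjusted p = 0.0247), but 0 of 3 control and 1 of 3 treated arrays detected it, so no fold is given. The calls of RPL29, RPL13 and RPL10L were each lost when certain single arrays of the line were left out (adjusted p up to 0.0842, 0.101 and 0.162).

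The 2 probes of RPL29 gave similar values in each line. ILMN_1737517 and ILMN_1771051 gave -0.39 and -0.37 in KM-H2, -0.41 and -0.35 in L-428, -0.25 and -0.29 in L-540, and -0.39 and -0.36 in SUP-HD1. In the mean of the lines both fell, by 0.36 and 0.34 on the log2 scale (adjusted p = 2.74e-05 and 1.31e-05 by limma), under the size limit.

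**Figure D3:**
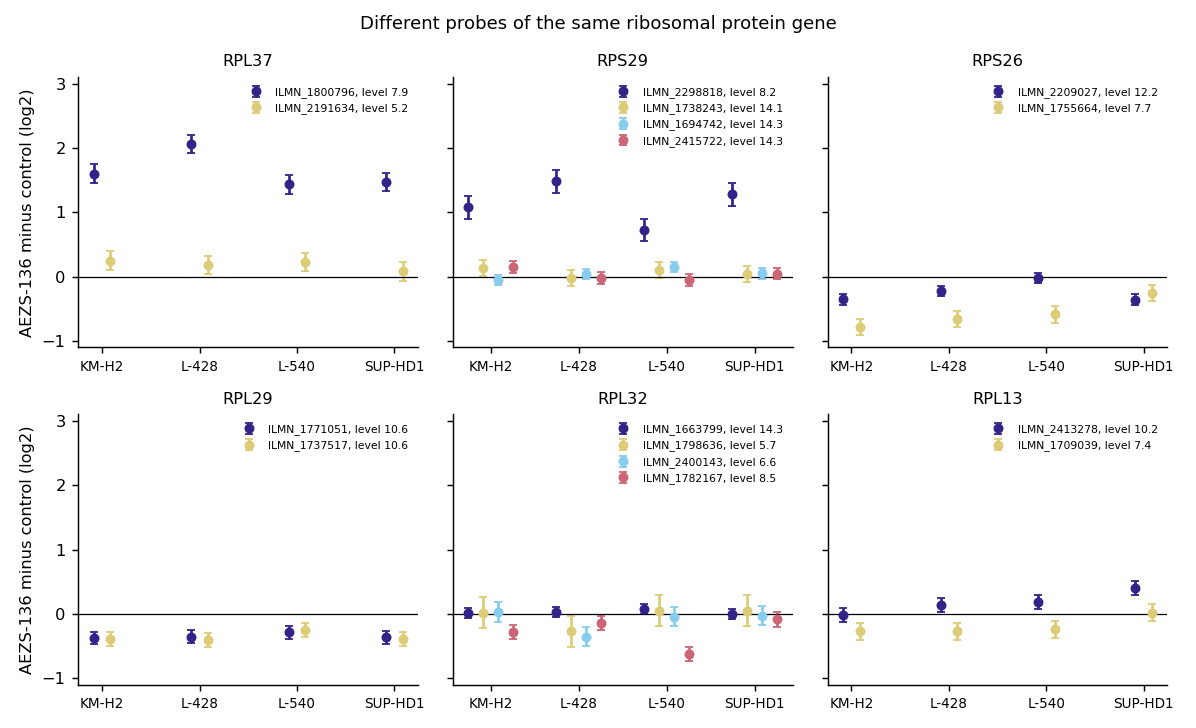
Log2 change (AEZS-136 minus control) of each kept probe of RPL37, RPS29, RPS26, RPL29, RPL32 and RPL13 in the 4 lines, with standard errors of the model as bars and the mean level of each probe in the key. The probes of RPL29 lie on each other, while 1 probe of RPL37 and 1 of RPS29 stand above the rest.

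Of the 34 genes with 2 or more kept probes, 19 had probes within 0.1 of each other in the mean of the lines and 24 within 0.2. RPL37 (range 1.46) and RPS29 (1.11) exceeded 0.4. The probes of RPL34 moved in opposite directions, -0.24 and 0.16 (adjusted p = 5.74e-04 and 0.0112 by limma), as did those of RPL13, -0.19 and 0.18 (0.0428 and 0.0159). These pairs are named from their values. Ribosomal protein genes have many processed pseudogenes, and whether a probe also matched one was not tested.

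Without the size limit, 26 member probes (22.0%) passed the adjusted p in the mean of the lines, 10 higher and 16 lower, against 25.0% of all probes (12.7% higher, 12.3% lower). By line 19 passed in KM-H2 (14.8% of all probes), 8 in L-428 (9.17%), 8 in L-540 (11.4%) and 9 in SUP-HD1 (8.54%). RPS23, at the decoding centre of the small subunit, rose by 0.30 (adjusted p = 4.46e-05 by limma) with 0.36, 0.39, 0.33 and 0.13 in the lines. Both probes of RPS7, a small subunit protein that binds MDM2, fell, by 0.16 and 0.15 (adjusted p = 0.0109 and 0.0221). In 7 probes (5.93%) the treated and control arrays did not overlap, the same way in all 4 lines, against 4.04% of all probes. RPL37, RPS29, RPL28, RPS23 and RPL22 were above (2.32% of all probes), and RPL6 and RPS15 below (1.72%). RPL22 (0.24), RPL6 (-0.26) and RPS15 (-0.18) are named here after their values were seen.

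By role, most groups of proteins lay near no change. RPS6 gave 0.00 and -0.05 on its 2 probes in the mean of the lines, with line values between -0.11 and 0.06. RPL5 and RPL11, which carry the 5S RNA and bind MDM2, gave -0.04, 0.00 and 0.03, and their list with RPL23 and RPL26 had 0 of 5 probes called in any line. The stalk that recruits translation factors (RPLP1, RPLP2 and RPL12) had 0 of 6 called, with a median of 0.0192. The polypeptide exit tunnel list had 0 of 9 called and a median of -0.00289. Over all probes the median was -0.0110, 6.69% were called in the mean (4.22% higher, 2.47% lower) and 78.2% in no line. At those shares lists of 5 to 9 probes hold few calls, so their counts do not set these roles apart. The list of 5 genes along the mRNA path had 1 of 6 probes called, RPS26, and a median of 0.00255. RPS19 (-0.02) and RPS14 (0.03 and 0.06), which are mutated or lost in ribosomopathies, lay in the same range. Of 25 probes for Diamond-Blackfan anemia genes 1 was called higher (RPS29) and 1 lower (RPS26), with a median of -0.00732. Of 30 probes for genes that host small nucleolar RNAs in their introns 1 was called, RPL37, with a median of 0.0108.

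The paralogs ending in L, which replace or resemble a parent protein, were called in none of the 4 lines except RPL10L in L-540. RPL36AL gave -0.19 and -0.14 on its 2 probes and fell on both without the size limit (adjusted p = 0.00307 and 0.0189 by limma). Its parent RPL36A fell on ILMN_2112811 (-0.21, adjusted p = 9.17e-04), while ILMN_1781137, detected on 6 of 24 arrays, gave -0.06. RPS27L, a p53-responsive paralog, fell by 0.14 (adjusted p = 0.0222), beside 0.00, 0.07 and -0.01 on the 3 probes of RPS27. RPL39L gave -0.09 on both probes and RPL39 0.06. RPL3L, the muscle paralog of RPL3, was detected on 0 arrays, and RPL3 gave 0.08 and 0.03. The kept probe of RPL10 was detected on 4 arrays and gave -0.18 (adjusted p = 0.387).

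The calls lay among the dimmer member probes. Signal depends on the probe as well as on the mRNA, so it is used here only to sort probes. The median mean level of the member probes was 13.56 against 6.30 for all kept probes, and 47 members stood among the 246 brightest (1%). Of the 73 member probes with a mean level of 13 or more, 0 were called in the mean of the lines or in any line by limma. Of all 488 probes of that level 0.82% were called in the mean and 2.05% in any line. Without the size limit 2 of the 73 member probes passed the adjusted p, the single RPL13A probe (0.24) and 1 of RPL36AL (-0.14). Of the 10 members under a level of 8, 2 were called (20.0%), against 6.50% of all probes there. Of the 9 between 8 and 10, 2 were called (22.2%) against 9.53%, and of the 26 between 10 and 13 none was called in the mean and 2 in a single line. Of all probes between 10 and 12 and between 12 and 13, 4.39% and 2.46% were called in the mean, and 13.9% and 7.39% in any line. The standard deviation of the mean change was 0.0535 in the bright members and 0.0801 over all bright probes. These ranges were chosen after seeing the data. The raw signal of the brightest member arrays reached 27862, and whether high signal narrowed the changes was not tested.

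**Figure D4:**
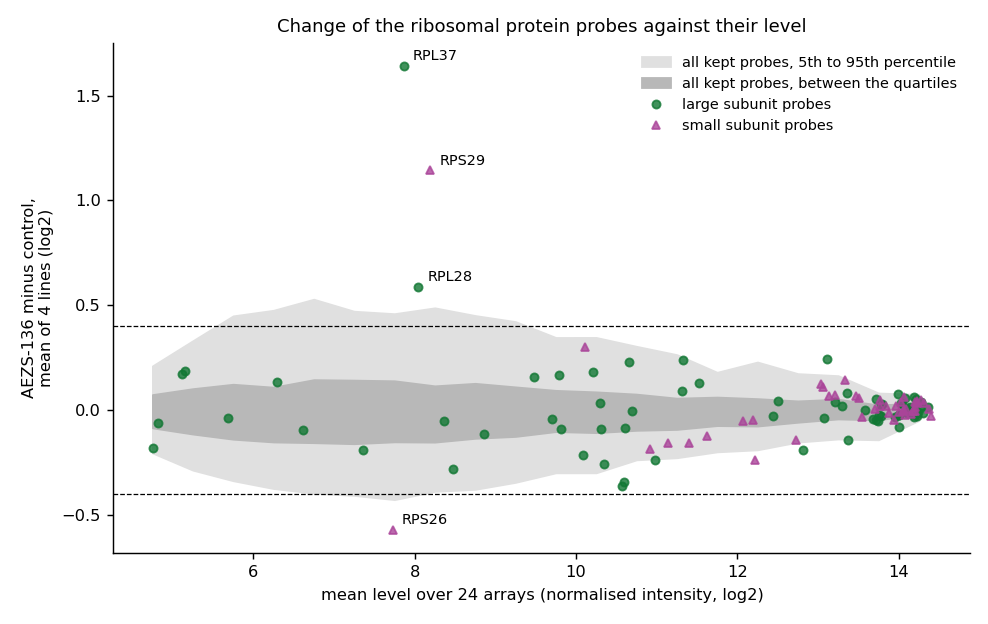
Mean log2 change over the 4 lines against the mean normalised level over the 24 arrays for the 118 member probes, with the range between the quartiles and that from the 5th to the 95th percentile of all kept probes as grey bands and dashed lines at 0.4. The members crowd near 0 at levels above 13, and the 4 called probes lie near a level of 8.

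The response did not differ between the resistant and the sensitive lines for any member at the thresholds (0 of 118, against 2.10% of all probes). At an unadjusted p under 0.05 there were 7 members (5.93%), against 15.4% of all probes. RPL37 rose by 0.38 ± 0.15 (SE) more in the resistant lines (adjusted p = 0.197 by limma), and 0.52 more in the authors' table, where it passed (adjusted p = 9.65e-05). RPS29 gave a difference of 0.28 ± 0.18 and RPL28 of 0.09 ± 0.12. In RPS26 the difference was -0.30 ± 0.13, with an adjusted p of 0.251. In the test for any difference among the 4 lines 0 members passed, against 7.62% of all probes, with 10 (8.47%) at an unadjusted p under 0.05, against 22.1%. Its adjusted p was 0.147 for RPL37, 0.206 for RPS29 and 0.114 for RPL28. In the authors' values 5 members passed, RPL37, RPS29, RPL28, RPL32 and RPL39L, and with no background correction 6 did, so this call depended on the processing.

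Differences between the lines at rest were frequent, though less so among the members than over all probes, a comparison not matched for level. In the controls 58 of the 118 member probes (49.2%) differed among the lines with a range over 0.4, against 73.6% of all probes. KM-H2 held the highest mean in 23 of these, L-540 in 17, SUP-HD1 in 13 and L-428 in 5. The lowest was in SUP-HD1 in 20, L-428 in 17, L-540 in 11 and KM-H2 in 10.

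RPL32 had the widest range, 5.01 on ILMN_1782167 (adjusted p = 3.20e-19 by limma). Its L-540 controls lay at 12.01 ± 0.098 (SD, n = 3), beside 7.79 ± 0.033 in SUP-HD1, 7.66 ± 0.10 in L-428 and 7.00 ± 0.014 in KM-H2. On the RPL32 probe ILMN_1663799 the 4 means lay between 14.16 and 14.31 (adjusted p = 0.247), so the high L-540 value belonged to 1 probe. RPS23 followed, with 11.35 ± 0.091 in KM-H2, 10.36 ± 0.10 in L-540, 10.16 ± 0.051 in SUP-HD1 and 7.98 ± 0.22 in L-428 (adjusted p = 3.91e-17), where L-540 and SUP-HD1 stood closest, with ranges of 10.25 to 10.45 and 10.13 to 10.22.

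RPS7 gave the same order on both probes. On ILMN_1750722 the means were 12.68 ± 0.016 in KM-H2, 11.99 ± 0.16 in L-540, 11.21 ± 0.068 in SUP-HD1 and 10.03 ± 0.064 in L-428 (SD, n = 3), and on ILMN_2070072 12.41 ± 0.10, 11.74 ± 0.22, 11.00 ± 0.12 and 9.73 ± 0.065. The ranges were 2.66 and 2.69 (adjusted p = 5.04e-16 and 2.79e-15 by limma), and no 2 lines overlapped on either probe.

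RPL37A differed by 2.69 on ILMN_1808757, from 7.73 in KM-H2 to 5.03 in SUP-HD1, where 1 of 3 control arrays detected it, and by 0.23 on ILMN_2051519 (adjusted p = 0.187). The RPL17 probe ILMN_1655422 was lowest in KM-H2 (9.19 ± 0.18) and highest in SUP-HD1 (11.54 ± 0.12). L-428 and L-540 overlapped at 10.71 ± 0.18 and 10.71 ± 0.17, and the other RPL17 probes had the same lowest and highest line with ranges of 0.83 and 0.62.

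The probes that responded to AEZS-136 also differed at rest, which was frequent at their levels. Of all probes 66.5% under a level of 8 and 94.3% between 8 and 10 differed among the controls. The RPL37 probe stood at 8.62 in KM-H2 controls and at 6.67, 6.45 and 6.46 in L-428, L-540 and SUP-HD1. The RPS29 probe was lowest in KM-H2, 6.41, and lay between 7.96 and 8.07 in the others. RPL28 ran from 6.36 in L-540 to 8.55 in KM-H2, and RPS26 from 7.27 in SUP-HD1 to 8.50 in L-428. RPS6, RPLP2 and RPS19 stayed within 0.31 among the lines on every probe.

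**Figure D5:**
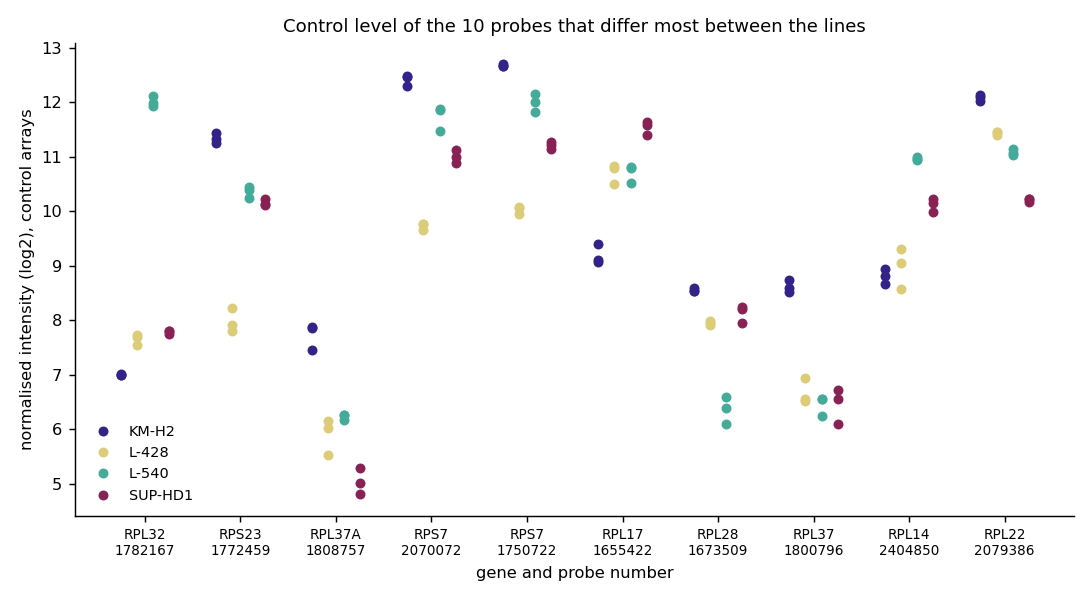
Normalised log2 intensity of the control arrays, 3 per line, for the 10 member probes with the widest range of control means. L-540 stands above the other lines for RPL32, and L-428 below them for RPS23 and both probes of RPS7.

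Other parts of the translation machinery were counted for comparison. Of 29 probes for 14 other genes with TOP mRNAs, mostly elongation and initiation factors, 0 were called in any line or in the mean by limma, with a median mean change of 0.0479. Of all probes 6.69% were called in the mean (4.22% higher, 2.47% lower) and 78.2% in no line. Of 107 probes for 76 mitochondrial ribosomal protein genes, which serve the organelle's own ribosome, 2 were called higher and 5 lower in the mean of the lines, with a median of -0.104. By line 15 of these were called lower in KM-H2 (median -0.201), 7 in L-428 (-0.0723), 5 in L-540 (-0.0911) and 6 in SUP-HD1 (-0.0419), and 2, 1, 3 and 2 higher. Of all probes 4.75%, 3.22%, 3.53% and 3.60% were called lower in these lines, and 6.47%, 4.05%, 5.53% and 2.94% higher. Beside the mitochondrial list the cytosolic members had 3 higher and 1 lower of 118 in the mean, and a median of 0.000655.

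Array quality was described by signal and detection alone. Median signals ran from 96 to 128 over all probes and from 9283 to 15229 over the kept members. On each array 16876 to 19524 probes were detected. Of 7 Hodgkin markers 5 were detected on all 6 arrays of each line and CCL17 on all but 1 array of L-540. TNFRSF8 (CD30) was detected on all arrays of L-540, 1 of L-428 and none of KM-H2 or SUP-HD1. Lists of 4 T cell, 4 myeloid, 5 stromal or epithelial and 4 erythroid markers had probes for 3, 4, 5 and 3 of them. At most 3 markers of a list were detected throughout a line, the highest being the myeloid list in KM-H2. Their part in the results was not tested.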

How the data were processed

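Total RNA was labelled and hybridised to Illumina bead arrays. The authors deposited bead intensity per probe on a linear scale, summarised in BeadStudio (version not given), with a detection score beside it that is 1 minus the detection p-value. A second deposited table holds log2 values, normalised by the authors with lumi (robust spline). In 3270 of 47323 probes the columns of the intensity table are out of register. These were left out and included 0 members. Their shift gives an export order of the arrays, which was cut here into 2 sets of 12. The cut was a choice and was not read from the shift or the labels. Each set holds all 8 groups, but not evenly. In each of L-540 and SUP-HD1, set 1 holds 1 control and 2 treated arrays, and set 2 holds 2 controls and 1 treated array. In KM-H2 and L-428 control and treated arrays were split alike. Symbols came from the platform annotation, and all 121 member probes matched RefSeq genes.

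Intensities were background corrected and quantile normalised with neqc (offset 16, limma 3.58.1, R 4.3.3). A probe stayed in if 3 or more arrays detected it at p under 0.05. The lmFit and eBayes functions were run on the 24 arrays together with 8 group coefficients, and Benjamini-Hochberg adjustment covered the 24578 remaining probes. Calls needed an adjusted p under 0.05 and a log2 change over 0.4, the thresholds in the study's methods. F tests compared the 4 responses and the 4 control levels. Genes to be named were those called in the mean of the lines or in 2 or more lines. Without such calls the 3 largest rises and falls per contrast would have been taken instead. Genes whose probes differed by over 0.4, the 5 widest control ranges and the L paralogs with their parents were added. RPS6, RPL5, RPL11, RPLP1, RPLP2, RPS19 and RPS14 were added too. Members, lists and tests were chosen with earlier results of these data known. Alternatives were the authors' values, median scaling, no background correction, other filters, blocks for replicate number and export set, each set or line alone, the methods' t-test and each array left out. The scripts were tested on simulated data. The number of arrays limits the precision.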

Additional observations from a re-analysis of the deposited data

How the results depend on the processing

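Over 21 pairs of a called member probe or contrast, 206 of 264 alternative values kept their direction and their side of the thresholds, 58 fell short of a threshold and 0 reversed. RPL37, RPS29 and RPL28 passed in the mean of the lines under every alternative run. RPS26 did under all but the authors' values and no background correction (-0.39 in each). The replicate block changed no call of a treated contrast (4, 4, 6, 3 and 4 calls in KM-H2, L-428, L-540, SUP-HD1 and the mean). It gave 59 control differences against 58. Deviations from the group means correlated over 0.1 in 0 of 12 same-numbered pairs (-0.178 to 0.0959), beside -0.134 to 0.169 for other numbers. These deviations also hold array noise, so they cannot decide whether same-numbered arrays were made together.

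Counts moved as follows. With the first export set alone 1 member was called in L-428 and 2 in L-540, and with the second 1 in KM-H2, 2 in L-428, 1 in L-540 and 1 in SUP-HD1. These fits use fewer arrays. The methods' t-test gave 2 in L-428, 1 in L-540 and 1 in SUP-HD1. In L-540 the authors' values gave 3, no background correction 3 and median scaling 2. Without the size limit 19, 8, 9 and 26 passed in KM-H2, L-428, SUP-HD1 and the mean. For the resistant minus sensitive difference the authors' values and no background correction gave 1 each (RPL37). For any difference among lines they gave 5 and 6, and probes detected on all 24 arrays gave 1 (RPL39L). Leaving out each array gave 4 to 8 calls in KM-H2, 3 to 5 in L-428, 5 to 6 in L-540, 2 to 4 in SUP-HD1, 4 to 4 in the mean, 0 to 0 for resistant minus sensitive, 0 to 2 for any difference among lines and 56 to 62 for the controls. The 8 came without KM-H2 control replicate 1, which added both RPL29 probes, RPL34 and RPL6, and 7 came without control replicate 3. In SUP-HD1, leaving out 1 array changed only the calls of RPL29 and RPL13. Among lines, SUP-HD1 control replicate 2 gave the 2 (RPL37 and RPL39L), and L-428 control replicate 3, L-428 AEZS-136 replicate 1 and SUP-HD1 AEZS-136 replicate 3 gave 1 each. Why the alternatives differ was otherwise not tested.

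Median scaling moved the member medians to 0.0873 in KM-H2, -0.126 in L-428, 0.167 in L-540, 0.122 in SUP-HD1, 0.0748 in the mean and -0.176 between the classes, while those of all probes were 0.0744, -0.0841, 0.0418, 0.0893, 0.0308 and -0.0778. It raised the share of all called probes that were higher from 57.7% to 88.5% in KM-H2, 61.0% to 82.6% in L-540, 44.9% to 71.7% in SUP-HD1 and 63.0% to 79.7% in the mean. In L-428 the share was 55.7%, with 46.0% under median scaling and 66.0% in the authors' values.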

Other observations

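Pseudogene probes fell outside the member rule. Of 24 kept probes for 17 cytosolic ribosomal protein pseudogenes 1 was called in the mean of the lines, RPL32P3 on ILMN_2175020, with log2 changes of 0.91 in KM-H2, 0.52 in L-428, 0.57 in L-540 and 0.67 in SUP-HD1 (mean 0.67, adjusted p = 2.66e-06 by limma). Its other probe gave 0.18 (adjusted p = 0.228), and the RPL32 probes gave between -0.28 and 0.03. RPS26P11, a pseudogene of RPS26, gave -0.35, -0.25, -0.18 and -0.12 in the 4 lines and fell in the mean by 0.23 on the log2 scale (adjusted p = 3.44e-04), beside -0.57 and -0.24 for the RPS26 probes. RPL23AP53 gave -0.47 in KM-H2, 0.00 in L-428, 0.45 in L-540 and 0.41 in SUP-HD1. It is named from these values, and its mean was 0.10 (adjusted p = 0.302 by limma). Of the 24 probes 1 passed in resistant minus sensitive and 2 in the test among lines, against 2.10% and 7.62% of all probes.

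Symbols ending in L1 and ribosomal proteins with other names also lay outside the rule. FAU, the precursor of RPS30, gave -0.04 in the mean of the lines. The 2 probes of RPL26L1 moved apart in SUP-HD1, at 0.40 and -0.58, and gave 0.02 and -0.28 in the mean. RPL7L1 gave -0.06 and 0.03. These values are reported without a test of a cause.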
